A study of Mus musculus with 9 samples.

Results

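Collagens are the proteins of the extracellular matrix that share a triple helix wound from α chains, and each chain is the product of its own gene. The collagen chain genes described here are the annotated entries of the deposited count table whose mouse symbol has the form Col, a number, a and a number. There were 44 of them among 22036 annotated entries, and 32 of the 44 had enough counts to be tested. Left ventricular RNA from 9 wild-type (WT) mice was sequenced in 3 groups of 3 biological replicates, per the labels. ND+AAV-CON mice received a control adeno-associated virus (AAV) and ate the ND, which is taken to mean normal diet. In HFD+AAV-CON the same control AAV was given on HFD, taken to mean high-fat diet. In HFD+AAV-BCKDK the AAV was one named for BCKDK, on HFD as well. All 3 groups therefore carried an AAV, and no group without one was compared. The age and sex of the mice, the content and length of the diets, and the dose and promoter of the vectors were not stated in the labels or series text used here. According to the series title, the study concerns BCKDK, the kinase that inhibits branched-chain α-ketoacid dehydrogenase, in cardiac remodelling of obesity.

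In the heart, fibroblasts lay down most of the fibrillar collagen, type I and type III, which is bundled into the fibres of the interstitium and of scars. Type IV collagen forms the sheet-like network of the basement membrane that surrounds cardiomyocytes and capillaries, and type VI collagen forms beaded filaments between the basement membrane and the interstitial fibres. Fibril-associated collagens sit on the surface of the fibres, and several further collagens build networks around vessels or span cell membranes. The 44 genes were placed in these structural classes, with 11 fibrillar, 6 basement membrane, 8 beaded, 9 fibril-associated and 10 other collagens.

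Annotated genes received between 32803233 and 45483044 counts per library. The library labelled HFD+AAV-CON replicate 3 stood apart in how it related to its group. Its value lay between those of replicates 1 and 2 for 64.1% of all 14160 genes tested and for 25 of the 32 tested collagen genes, and loci without a gene name took 1.02% of its counts against 4.75% to 6.01% in the other 8 libraries. The labels call it a biological replicate, and whether it is independent of replicates 1 and 2 was not tested. If it were not, n = 3 would overstate the replication of HFD+AAV-CON, so results are also given without it. Levels below are in CPM, the count scaled to library size. Bckdk itself measured 78.6, 70.3 and 70.6 CPM in ND+AAV-CON, 37.1, 65.0 and 49.4 CPM in HFD+AAV-CON and 111, 126 and 120 CPM in HFD+AAV-BCKDK, so the 3 libraries of the last group were the highest, as their label says. Counts mapped to Bckdk do not separate the mouse gene from a transgene of the same sequence.

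In CPM the count is divided by the library size after scaling with TMM, the trimmed mean of M-values. A gene is called higher or lower where its adjusted p was under 0.05 in edgeR's quasi-likelihood test, with the Benjamini-Hochberg adjustment over all 14160 genes. Where no other tool is named, adjusted p values of genes are from that test. Fold changes are log2 values with their standard errors (SE). The diet comparison sets HFD+AAV-CON against ND+AAV-CON. The vector comparison sets HFD+AAV-BCKDK against HFD+AAV-CON. The joint comparison sets HFD+AAV-BCKDK against ND+AAV-CON, groups that differ in diet and vector together. The diet and vector comparisons use the same 3 HFD+AAV-CON libraries, and a high or low value there moves both, in opposite directions.

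Collagen transcripts took a larger share of counts in every HFD+AAV-CON library than in any library of the other groups, though the total itself was not tested. They took 0.107%, 0.114% and 0.1001% of the annotated total in ND+AAV-CON libraries, 0.600%, 0.232% and 0.422% in those of HFD+AAV-CON, and 0.118%, 0.129% and 0.141% in those of HFD+AAV-BCKDK. Replicate 2, the lowest of the HFD+AAV-CON libraries, lay well below replicates 1 and 3. Mitochondrially encoded transcripts ran from 42.1% to 45.7% of the annotated total in ND+AAV-CON libraries, from 26.1% to 39.9% in those of HFD+AAV-CON and from 45.0% to 47.6% in HFD+AAV-BCKDK, lowest in the HFD+AAV-CON libraries. Leaving those transcripts out of the denominator, the collagen share was 0.173% to 0.201%, 0.385% to 0.812% and 0.215% to 0.256% in the 3 groups, still with no overlap between HFD+AAV-CON and the others. The collagen genes together reached a mean of 1157 ± 99.3 CPM (SD, n = 3) with ND+AAV-CON, against 3312 ± 994 CPM with HFD+AAV-CON, while HFD+AAV-BCKDK libraries held 1447 ± 101 CPM.

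Of the 32 tested collagen genes, 19 were higher in HFD+AAV-CON than in ND+AAV-CON, 1 was lower and 12 were not called. Over all genes tested, 22.7% were called higher and 20.6% lower in that comparison, 43.3% in all. The median log2 fold change was 1.12 over the tested collagen genes and -0.00 over all genes. In the vector comparison 18 collagen genes were lower and none was higher (0 called higher), where 20.9% and 17.3% of all genes were called lower and higher (38.2% in all), and the median was -0.80 against -0.01 over all genes. At an unadjusted p under 0.05, 19 collagen genes passed in that comparison, and the 1 beyond the 18 called lower was Col6a6, with a higher level in HFD+AAV-BCKDK. The share of all genes at that threshold was not counted. Without HFD+AAV-CON replicate 3 the counts were 18 higher and 1 lower in the diet comparison and 17 lower in the vector comparison. Over all genes the shares called in that fit were 16.2%, 12% and 13%. Leaving that library out moved the fold changes of 23 collagen genes by at most 1.12 times in each of these comparisons. These 23 are the genes named by rule and those added to it, Col5a1, Col5a3 and Col27a1. Other collagen genes mentioned below were not part of that check. As HFD+AAV-CON replicate 3 lay between replicates 1 and 2 for 25 of the 32 tested genes, a small shift follows from that position and says little about its independence.

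**Figure D1:**
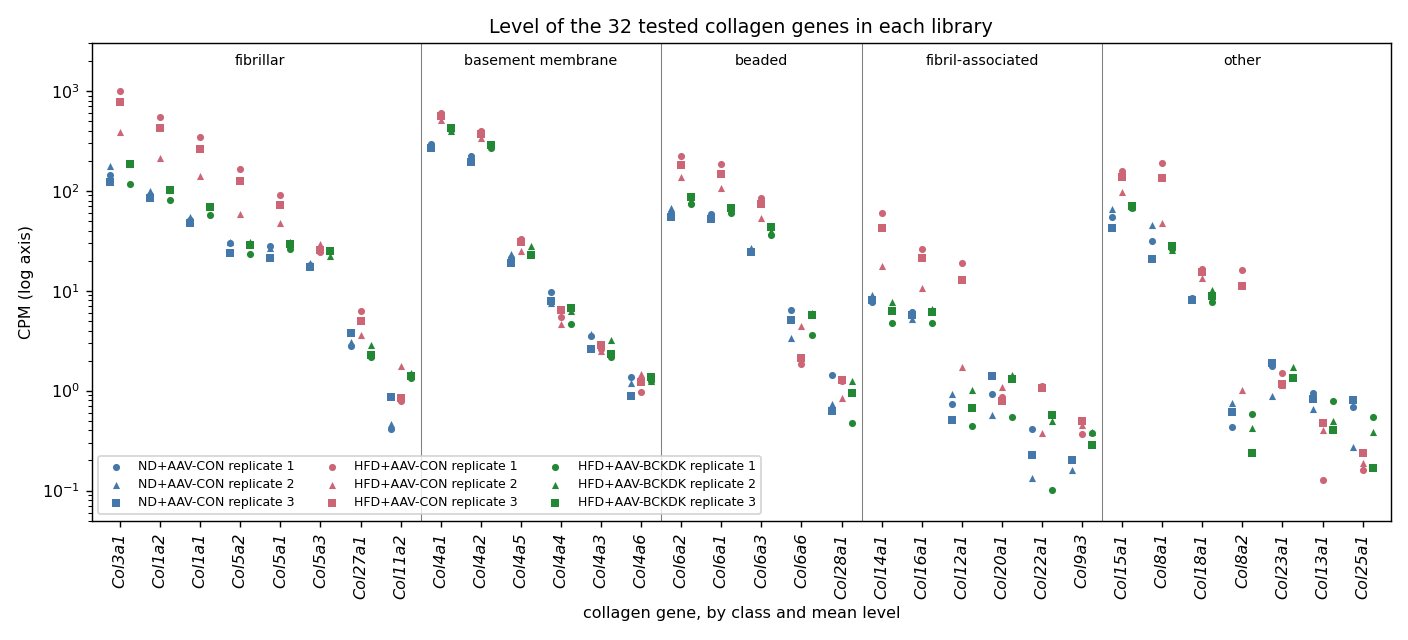
Level of each tested collagen gene in each of the 9 libraries, in CPM on a log axis, with the genes grouped by structural class and ordered by mean level. Colours mark the 3 groups and symbols the replicate number, and a value of 0 (Col9a3 in ND+AAV-CON replicate 1) is not drawn. The HFD+AAV-CON points of Col3a1 lie at 391 to 1010.1 CPM, above the 118 to 186 CPM of the other 6 libraries.

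In the joint comparison 1 collagen gene, Col4a1, was called higher and 0 lower, where 1.18% and 1.27% of all genes were called higher and lower, 2.45% in all. At an unadjusted p under 0.05, 7 of the 32 passed, and the share of all genes at that threshold was not counted. DESeq2 called 4 higher and 0 lower, where it called 3.43% and 2.94% of all genes higher and lower. The median log2 fold change was 0.13 over the tested collagen genes and -0.03 over all genes. With HFD+AAV-CON replicate 3 left out, which enters the joint comparison only through the shared estimate of the spread, 0 collagen genes were called. Over all genes 0.468% were called higher and 0.384% lower in that fit. Taking the 3 comparisons side by side, 16 collagen genes were higher in HFD+AAV-CON than ND+AAV-CON, lower in HFD+AAV-BCKDK than HFD+AAV-CON, and not called between HFD+AAV-BCKDK and ND+AAV-CON. Col4a1 followed the first 2 of these steps and was called in the last as well. Col5a3 and Col4a5 were called higher in HFD+AAV-CON only against ND+AAV-CON, Col4a4 was called lower there, Col27a1 was called lower in HFD+AAV-BCKDK only against HFD+AAV-CON, and 11 were called in no comparison.

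**Figure D2:**
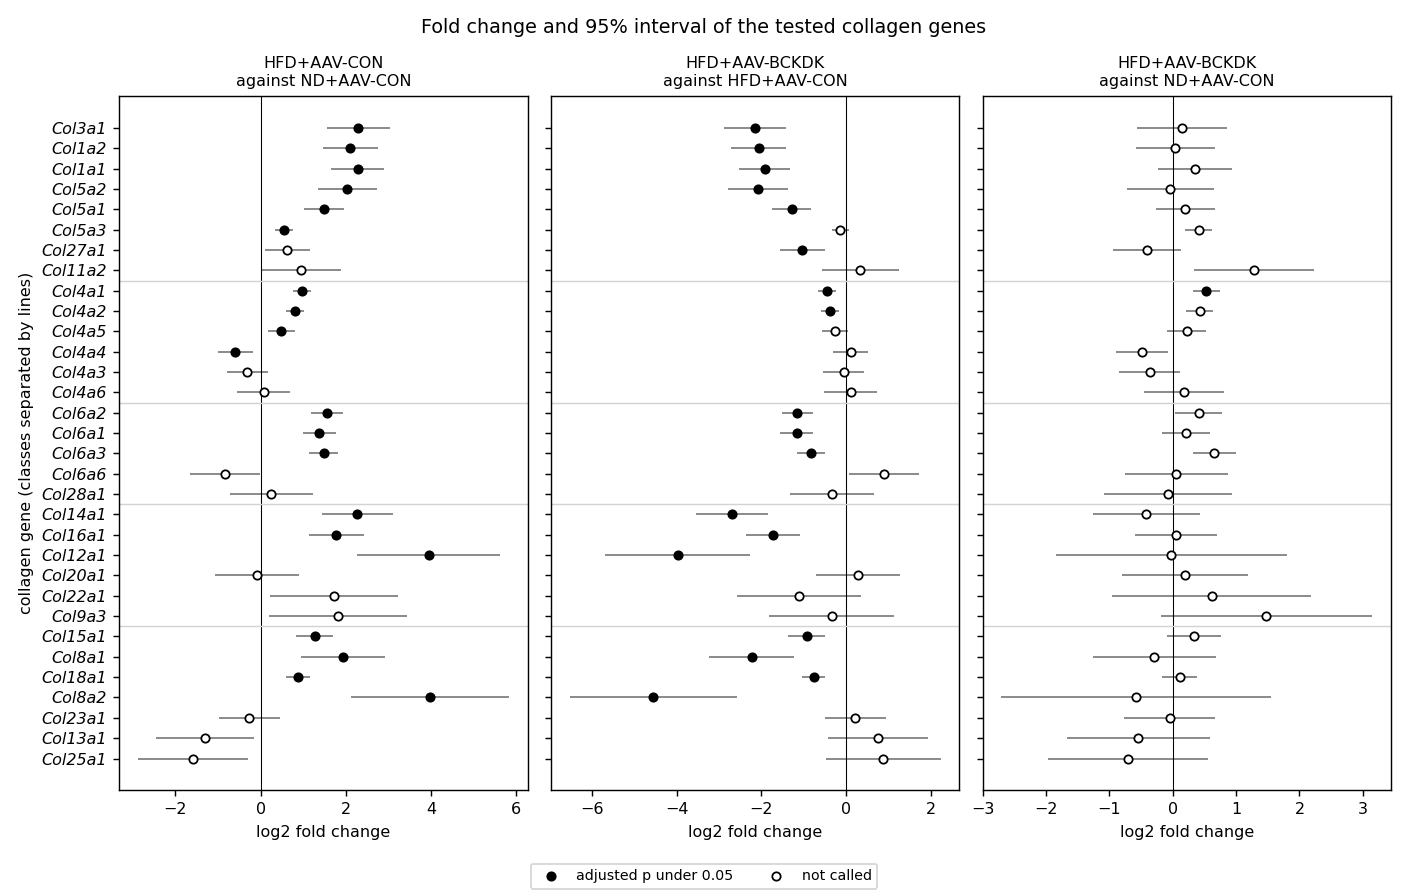
Log2 fold change of the 32 tested collagen genes in the 3 comparisons, with 95% intervals from the quasi-likelihood fit. Filled circles have an adjusted p under 0.05. In the left panel 19 filled circles lie above 0 and 1 below, in the middle panel 18 lie below 0, and in the right panel only Col4a1 is filled.

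Fibrillar collagens had the largest share of called genes among the classes. Of the 8 tested, 6 were higher in HFD+AAV-CON than in ND+AAV-CON, with a class median of 1.76 on the log2 scale, and 6 were lower in HFD+AAV-BCKDK than in HFD+AAV-CON, with a class median of -1.61. Col3a1 (ENSMUSG00000026043, chr1:45311538-45349706, plus strand, mm10) encodes the single chain of type III collagen, which is abundant in distensible tissue and early scar. It measured 145, 177 and 121 CPM in ND+AAV-CON, 1010.1, 391 and 769 CPM in HFD+AAV-CON, and 118, 186 and 185 CPM in HFD+AAV-BCKDK. Every HFD+AAV-CON library was above the other 6, while the ND+AAV-CON and HFD+AAV-BCKDK values interleaved. The log2 fold change was 2.29 (SE 0.33, adjusted p = 0.00117) in the diet comparison and -2.15 (SE 0.33, adjusted p = 0.00213) in the vector comparison. Between HFD+AAV-BCKDK and ND+AAV-CON it was 0.14, with a 95% interval of -0.57 to 0.85.

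The chains of type I collagen, the main load-bearing fibre of the heart, are encoded by Col1a1 (ENSMUSG00000001506, chr11:94936224-94953042, plus strand) and Col1a2 (ENSMUSG00000029661, chr6:4504814-4541544, plus strand). Col1a1 measured 51.6, 54.9 and 48.2 CPM in ND+AAV-CON, 349, 141 and 261 CPM in HFD+AAV-CON and 57.2, 71.3 and 69.0 CPM in HFD+AAV-BCKDK. Here the HFD+AAV-BCKDK values all lay above those of ND+AAV-CON as well, though by far less than the HFD+AAV-CON values did. Its log2 fold change was 2.28 (SE 0.27, adjusted p = 6.62e-04) in the diet comparison, -1.93 (SE 0.27, adjusted p = 0.00165) in the vector comparison, and 0.35 (SE 0.26, adjusted p = 0.559) in the joint comparison. Col1a2 measured 90.8, 101 and 85.4 CPM in ND+AAV-CON, 551, 213 and 429 CPM in HFD+AAV-CON and 81.0, 102 and 102 CPM in HFD+AAV-BCKDK, with ND+AAV-CON and HFD+AAV-BCKDK overlapping. It was 2.11 (SE 0.29, adjusted p = 9.76e-04) higher in HFD+AAV-CON than ND+AAV-CON and changed by -2.07 (SE 0.29, adjusted p = 0.00162) in the vector comparison, on the log2 scale.

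Type V collagen is the minor fibrillar collagen that nucleates type I fibres and sets their width. Col5a2 (ENSMUSG00000026042, chr1:45374321-45503282, minus strand), the neighbour of Col3a1 on chromosome 1, measured 29.7, 30.9 and 24.0 CPM in ND+AAV-CON, 165, 58.9 and 124 CPM in HFD+AAV-CON and 23.2, 30.5 and 28.6 CPM in HFD+AAV-BCKDK. Its values in ND+AAV-CON and HFD+AAV-BCKDK overlapped, and the log2 fold changes were 2.04 (SE 0.31, adjusted p = 0.00145) and -2.08 (SE 0.31, adjusted p = 0.00204) in the diet and vector comparisons. The other 2 type V chains and Col27a1 are outside the rule for naming genes and were chosen after their values were seen. Col5a1 (ENSMUSG00000026837, chr2:27886425-28039514, plus strand) measured 27.8, 26.6 and 21.0 CPM in ND+AAV-CON, 91.0, 48.2 and 72.0 CPM in HFD+AAV-CON and 26.3, 31.1 and 29.2 CPM in HFD+AAV-BCKDK, with log2 fold changes of 1.49 (SE 0.21, adjusted p = 0.00105) and -1.29 (SE 0.21, adjusted p = 0.00249). Col5a3 (ENSMUSG00000004098, chr9:20770050-20815067, minus strand) encodes a chain of more restricted expression. It measured 18.2, 18.9 and 17.3 CPM in ND+AAV-CON, 24.6, 29.1 and 25.6 CPM in HFD+AAV-CON and 24.8, 22.2 and 24.9 CPM in HFD+AAV-BCKDK. Both HFD groups lay above ND+AAV-CON without overlap and overlapped each other, and replicate 2 was the highest of the HFD+AAV-CON libraries. The log2 fold change was 0.55 (SE 0.09, adjusted p = 0.00208) in the diet comparison and -0.14 (95% interval -0.34 to 0.07, adjusted p = 0.256) in the vector comparison. In the joint comparison it was 0.41 (SE 0.09, adjusted p = 0.0558), and it was called higher there in 5 of 21 alternative settings, among them DESeq2 (adjusted p = 0.00443).

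Col27a1 and Col11a2 encode fibrillar chains best known from cartilage. Col27a1 measured 2.79, 3.05 and 3.81 CPM in ND+AAV-CON, 6.32, 3.61 and 4.94 CPM in HFD+AAV-CON and 2.15, 2.86 and 2.28 CPM in HFD+AAV-BCKDK. In the diet comparison the groups overlapped (log2 fold change 0.63, SE 0.23, adjusted p = 0.0547), and in the vector comparison they did not (-1.03, SE 0.24, adjusted p = 0.011). Col27a1 was called higher in the diet comparison in 4 of 21 alternative settings, among them DESeq2 (adjusted p = 0.0368) and limma-voom (adjusted p = 0.0449). Col11a2 was under 2 CPM in every library and was not called, with log2 fold changes of 0.94 (adjusted p = 0.0945) and 0.33 (adjusted p = 0.542). Col2a1, Col11a1 and Col24a1 were not tested, and none had more than 6 counts in any library.

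RefSeq windows upstream of the gene start (GRCm38.p6, the 250 bases before the start, read on the gene's strand) were matched for 35 of the 44 genes. Windows of Col3a1 and Col5a1 are shown because both genes encode fibrillar chains that rose and fell in the same comparisons, while their upstream bases differ widely in composition. Capitals mark matches to TATAAA or GGGCGG, the TATA box and GC box letters, on either strand, and CCAAT and TGANTCA (AP-1) were searched as well.
Col3a1, chr1:45311288-45311537, plus strand: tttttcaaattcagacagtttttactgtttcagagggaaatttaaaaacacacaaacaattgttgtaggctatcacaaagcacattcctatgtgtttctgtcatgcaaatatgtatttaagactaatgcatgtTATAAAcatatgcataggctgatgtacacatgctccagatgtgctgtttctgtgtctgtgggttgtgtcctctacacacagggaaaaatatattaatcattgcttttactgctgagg
Col5a1, chr2:27886175-27886424, plus strand: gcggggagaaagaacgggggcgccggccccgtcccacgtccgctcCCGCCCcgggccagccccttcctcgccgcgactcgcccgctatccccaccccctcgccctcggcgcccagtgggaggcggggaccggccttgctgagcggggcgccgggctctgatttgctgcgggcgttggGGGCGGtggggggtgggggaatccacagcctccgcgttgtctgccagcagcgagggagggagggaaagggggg
The Col3a1 window has 35.2% G or C bases, 1 match to TATAAA and 0 to GGGCGG. The Col5a1 window has 76.4% G or C bases, 2 matches to GGGCGG and 0 to TATAAA. Of the 38 windows of collagen genes, 22 (57.9%) held GGGCGG, 13 (34.2%) held CCAAT, 5 (13.2%) held TATAAA and 1 (2.63%) held TGANTCA. Over all 32851 windows the shares were 32.7%, 33.8%, 12.4% and 6.75%. A match is a run of letters and was not tested as a site in these hearts.

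Basement membrane collagens had smaller fold changes, and their calls differed by chain. All 6 type IV chains were tested: 3 were higher and 1 was lower in HFD+AAV-CON than ND+AAV-CON, with a class median of 0.28, and 2 were lower in HFD+AAV-BCKDK than HFD+AAV-CON, with a class median of -0.16. Col4a1 (ENSMUSG00000031502, chr8:11198423-11312826, minus strand) and Col4a2 (ENSMUSG00000031503, chr8:11312805-11449287, plus strand) encode the chains of the widespread type IV trimer. Col4a1 measured 293, 286 and 269 CPM in ND+AAV-CON, 604, 509.7 and 562 CPM in HFD+AAV-CON, and 405, 397 and 424 CPM in HFD+AAV-BCKDK. The groups formed 3 separate levels with HFD+AAV-BCKDK in the middle. The log2 fold change was 0.98 (SE 0.09, adjusted p = 3.51e-04) in the diet comparison, -0.45 (SE 0.09, adjusted p = 0.00714) in the vector comparison, and 0.53 (SE 0.09, adjusted p = 0.0254) in the joint comparison. The joint call did not hold with HFD+AAV-CON replicate 3 left out (0.55, adjusted p = 0.0592), without each ND+AAV-CON or HFD+AAV-BCKDK library in turn (adjusted p from 0.0861 to 0.115) and under scaling to total counts (0.48, adjusted p = 0.203).

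Col4a2 followed the same order of groups, with 223, 211 and 197 CPM in ND+AAV-CON, 401, 335 and 371 CPM in HFD+AAV-CON and 272, 286 and 291 CPM in HFD+AAV-BCKDK. No 2 groups overlapped. Its log2 fold change was 0.81 (SE 0.10, adjusted p = 6.49e-04) in the diet comparison and -0.38 (SE 0.10, adjusted p = 0.0142) in the vector comparison, and the latter missed the threshold when HFD+AAV-CON replicate 3 (-0.36, adjusted p = 0.0612) or HFD+AAV-BCKDK replicate 1 (-0.35, adjusted p = 0.0552) was left out. In the joint comparison it was 0.43 (SE 0.10, adjusted p = 0.053). There it was called higher in 6 of 21 alternative settings, among them DESeq2 (adjusted p = 2.23e-04) and a fit of only the 2 groups compared (adjusted p = 0.00793).

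Col4a3, Col4a4 and Col4a5 encode the trimer of the kidney glomerular and a few other basement membranes, and Col4a5 also pairs with Col4a6. Col4a5 (ENSMUSG00000031274, chrX:141475385-141689234, plus strand) measured 21.1, 23.3 and 18.9 CPM in ND+AAV-CON, 33.2, 24.8 and 30.9 CPM in HFD+AAV-CON and 22.7, 28.4 and 22.8 CPM in HFD+AAV-BCKDK. The lowest HFD+AAV-CON value was close to the highest of ND+AAV-CON and fell within the HFD+AAV-BCKDK range. It was 0.49 (SE 0.14, adjusted p = 0.0184) higher on the log2 scale in HFD+AAV-CON than ND+AAV-CON, a call lost without ND+AAV-CON replicate 1 or 3 or HFD+AAV-CON replicate 1 or 3 (adjusted p from 0.0526 to 0.0649), and changed by -0.27 (95% interval -0.58 to 0.04, adjusted p = 0.147) in the vector comparison. Col4a4 (ENSMUSG00000067158, chr1:82448423-82586849, minus strand) was the collagen gene called lower in HFD+AAV-CON. It measured 9.68, 7.53 and 7.83 CPM in ND+AAV-CON, 5.41, 4.68 and 6.44 CPM in HFD+AAV-CON and 4.68, 6.33 and 6.79 CPM in HFD+AAV-BCKDK, so that both HFD groups lay below ND+AAV-CON and overlapped each other. The log2 fold change was -0.60 (SE 0.18, adjusted p = 0.0257) in the diet comparison and 0.11 (95% interval -0.30 to 0.52, adjusted p = 0.667) in the vector comparison. The call in the diet comparison did not hold under scaling to total counts (-0.19, adjusted p = 0.519), where the median of all genes was 0.40. Nor did it hold when ND+AAV-CON replicate 1 (adjusted p = 0.0906) or replicate 1 or 2 of HFD+AAV-CON (adjusted p = 0.0653 and 0.0534) was left out. Col4a3 (log2 fold change -0.31, adjusted p = 0.265) and Col4a6 (0.07, adjusted p = 0.85) were not called in that comparison, nor in the others.

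The type IV genes lie in head-to-head pairs in the GENCODE M21 annotation of mm10. The starts of Col4a1 and Col4a2 on chromosome 8 overlap by 22 bases, those of Col4a6 and Col4a5 on chromosome X are 1308 bases apart, and those of Col4a4 and Col4a3 on chromosome 1 are 71 bases apart. The gap between Col4a4 and Col4a3 is shown because it is so short that any upstream sequence of one gene lies at the other.
Col4a4 to Col4a3 gap, chr1:82586850-82586920, read on the minus strand (GRCm38.p6, from RefSeq): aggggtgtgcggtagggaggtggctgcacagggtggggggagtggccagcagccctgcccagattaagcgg
Both genes of the chromosome 8 pair were called higher in HFD+AAV-CON. In the other pairs 1 gene each was called, Col4a4 lower and Col4a5 higher, while the log2 fold changes of their partners were -0.31 (SE 0.21) for Col4a3 and 0.07 (SE 0.28) for Col4a6. The difference between the members of a pair was not tested.

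Among beaded-filament collagens the calls fell on the classical type VI trimer. Of 5 tested genes of the class, Col6a1, Col6a2 and Col6a3 were each higher in HFD+AAV-CON than ND+AAV-CON and lower in HFD+AAV-BCKDK than HFD+AAV-CON, and the class medians were 1.38 and -0.83. Col6a2 (ENSMUSG00000020241, chr10:76595762-76623630, minus strand) measured 60.0, 67.8 and 54.7 CPM in ND+AAV-CON, 223, 136 and 181 CPM in HFD+AAV-CON and 73.9, 81.6 and 87.3 CPM in HFD+AAV-BCKDK. No 2 groups overlapped, and the log2 fold changes were 1.57 (SE 0.17, adjusted p = 4.98e-04) and -1.15 (SE 0.17, adjusted p = 0.00178). Col6a1 (ENSMUSG00000001119, chr10:76708792-76726168, minus strand), its neighbour on chromosome 10, measured 58.8, 57.6 and 51.9 CPM in ND+AAV-CON, 185, 107 and 146 CPM in HFD+AAV-CON and 59.9, 67.8 and 67.1 CPM in HFD+AAV-BCKDK. Again the groups did not overlap, with the lowest HFD+AAV-BCKDK value just above the highest of ND+AAV-CON, and the log2 fold changes were 1.38 (SE 0.17, adjusted p = 7.19e-04) and -1.17 (SE 0.17, adjusted p = 0.00185).

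Col6a3 (ENSMUSG00000048126, chr1:90765923-90843971, minus strand) encodes the long chain of the trimer. It measured 24.2, 26.7 and 24.7 CPM in ND+AAV-CON, 84.2, 53.4 and 73.3 CPM in HFD+AAV-CON and 36.0, 39.8 and 43.1 CPM in HFD+AAV-BCKDK. The HFD+AAV-BCKDK libraries held a middle level, apart from both other groups. The log2 fold change was 1.48 (SE 0.15, adjusted p = 4.29e-04) in the diet comparison, -0.83 (SE 0.15, adjusted p = 0.00413) in the vector comparison and 0.66 (SE 0.15, adjusted p = 0.0598) in the joint comparison. The last was called higher in 4 of 21 alternative settings, among them DESeq2 (adjusted p = 0.00274) and a fit of only the 2 groups compared (adjusted p = 0.00459). Col6a6, which encodes an alternative long chain, measured 6.37, 3.35 and 5.10 CPM in ND+AAV-CON, 1.86, 4.42 and 2.12 CPM in HFD+AAV-CON and 3.62, 6.04 and 5.70 CPM in HFD+AAV-BCKDK, where HFD+AAV-CON replicate 2 lay within the range of both other groups. It was not called, with log2 fold changes of -0.83 (SE 0.37, adjusted p = 0.0926) and 0.88 (SE 0.37, adjusted p = 0.0838). Without HFD+AAV-CON replicate 2 it was called lower and then higher (-1.32, adjusted p = 0.0069, and 1.39, adjusted p = 0.0056). Col28a1 was not called (0.25 and -0.33), and Col6a4, Col6a5 and Col26a1, with at most 9 counts in any library, were not tested.

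Fibril-associated collagens included the genes with some of the widest spreads among HFD+AAV-CON libraries. Of 6 tested, 3 were higher in HFD+AAV-CON than ND+AAV-CON and the same 3, Col12a1, Col14a1 and Col16a1, were lower in HFD+AAV-BCKDK than HFD+AAV-CON, with class medians of 1.80 and -1.42. Col12a1 (ENSMUSG00000032332, chr9:79598991-79718831, minus strand) encodes a chain that bridges type I fibres in tendon and other loaded tissue. It measured 0.738, 0.918 and 0.505 CPM in ND+AAV-CON, 18.9, 1.72 and 12.7 CPM in HFD+AAV-CON and 0.444, 1.03 and 0.665 CPM in HFD+AAV-BCKDK. Every HFD+AAV-CON library was above the other 6, yet replicate 2 stood at 2.39 times the ND+AAV-CON mean and replicates 1 and 3 at 26.2 and 17.7 times. The log2 fold changes were 3.95 (SE 0.75, adjusted p = 0.00345) and -3.98 (SE 0.76, adjusted p = 0.00509). Without HFD+AAV-CON replicate 1 they were 3.32 and -3.32, and limma-voom did not call either (adjusted p = 0.0947 and 0.121).

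Col14a1 (ENSMUSG00000022371, chr15:55307750-55520803, plus strand) encodes a fibre-surface collagen that limits fibre growth. It measured 7.71, 9.13 and 8.03 CPM in ND+AAV-CON, 59.6, 17.8 and 42.8 CPM in HFD+AAV-CON and 4.71, 7.67 and 6.24 CPM in HFD+AAV-BCKDK. The HFD+AAV-BCKDK libraries lay at or below the level of ND+AAV-CON, with all 3 below the lowest ND+AAV-CON value, 7.71 CPM. Its log2 fold changes were 2.27 (SE 0.37, adjusted p = 0.00188) and -2.69 (SE 0.38, adjusted p = 0.00174), and -0.42 (SE 0.37, adjusted p = 0.644) in the joint comparison. Col16a1 (ENSMUSG00000040690, chr4:130047840-130099283, plus strand), a chain found at the edge of fibres, measured 6.10, 5.16 and 5.68 CPM in ND+AAV-CON, 26.1, 10.6 and 21.4 CPM in HFD+AAV-CON and 4.78, 6.61 and 6.20 CPM in HFD+AAV-BCKDK. Only HFD+AAV-CON stood apart, and the log2 fold changes were 1.78 (SE 0.29, adjusted p = 0.00177) and -1.73 (SE 0.29, adjusted p = 0.00284).

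The other fibril-associated genes were near the detection limit. Col20a1 measured 0.567 to 1.39 CPM in ND+AAV-CON, 0.787 to 1.08 CPM in HFD+AAV-CON and 0.546 to 1.45 CPM in HFD+AAV-BCKDK and was not called (log2 fold changes -0.09 and 0.28). Col22a1 (1.73, adjusted p = 0.0612) and Col9a3 (1.82, adjusted p = 0.0662), each at most 1.11 CPM, were not called in the diet comparison either, although all 3 HFD+AAV-CON values of Col9a3 lay above those of ND+AAV-CON. Col9a1 and Col19a1 had 0 counts in all 9 libraries, which at 3 counts per library allows up to 0.0481 to 0.106 CPM. Col9a2 was counted 0, 3 and 0 times in the ND+AAV-CON libraries, 32, 7 and 10 in those of HFD+AAV-CON and 7, 3 and 0 in those of HFD+AAV-BCKDK, and was not tested. Counting error is all that such limits cover, and they would change if a read pair was counted as 2.

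The class of other collagens held genes of vessel and basement membrane borders and of cell membranes. Of 7 tested, 4 were higher in HFD+AAV-CON than ND+AAV-CON and the same 4 were lower in HFD+AAV-BCKDK than HFD+AAV-CON, with class medians of 0.88 and -0.77. Col15a1 and Col18a1 encode the multiplexins, which anchor basement membranes and carry heparan or chondroitin sulfate. Col15a1 (ENSMUSG00000028339, chr4:47208161-47313167, plus strand) measured 55.2, 65.7 and 42.7 CPM in ND+AAV-CON, 159, 96.7 and 138 CPM in HFD+AAV-CON and 67.1, 68.3 and 70.5 CPM in HFD+AAV-BCKDK. HFD+AAV-BCKDK lay just above ND+AAV-CON and held the narrowest range of the 3 groups, and the log2 fold changes were 1.27 (SE 0.19, adjusted p = 0.00141) and -0.93 (SE 0.19, adjusted p = 0.00667). Col18a1 (ENSMUSG00000001435, chr10:77052178-77166548, minus strand) measured 8.45, 8.23 and 8.03 CPM in ND+AAV-CON, 16.7, 13.5 and 15.2 CPM in HFD+AAV-CON and 7.75, 10.1 and 8.81 CPM in HFD+AAV-BCKDK. Its HFD+AAV-CON libraries were close together, and the log2 fold changes were 0.88 (SE 0.12, adjusted p = 0.00106) and -0.77 (SE 0.12, adjusted p = 0.00249).

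Col8a1 and Col8a2 encode the short chains of type VIII collagen, a network former of vessel walls and of the corneal basement membrane. Col8a1 (ENSMUSG00000068196, chr16:57624258-57754737, minus strand) measured 31.4, 45.7 and 20.6 CPM in ND+AAV-CON, 191, 47.5 and 134 CPM in HFD+AAV-CON and 26.2, 25.8 and 27.7 CPM in HFD+AAV-BCKDK. The lowest HFD+AAV-CON value, replicate 2, was barely above the highest of ND+AAV-CON, and the HFD+AAV-BCKDK values were nearly alike. The log2 fold changes were 1.93 (SE 0.44, adjusted p = 0.00776) and -2.22 (SE 0.45, adjusted p = 0.00622). Col8a2 (ENSMUSG00000056174, chr4:126286793-126314330, plus strand) measured 0.437, 0.756 and 0.606 CPM in ND+AAV-CON, 16.2, 1.02 and 11.2 CPM in HFD+AAV-CON and 0.580, 0.424 and 0.237 CPM in HFD+AAV-BCKDK. As for Col12a1, replicate 2 was above the other groups but far from replicates 1 and 3, at 1.71 times the ND+AAV-CON mean against 27.1 and 18.6 times. Col8a2 had the largest log2 fold change among the collagen genes in each of the diet and vector comparisons, 3.98 (SE 0.83, adjusted p = 0.00521) and -4.55 (SE 0.88, adjusted p = 0.00529). Leaving out HFD+AAV-CON replicate 1 gave 3.33 and -3.88, and limma-voom did not call either (adjusted p = 0.143 and 0.170).

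The upstream windows of the type VIII pair are shown because the chains join in the same network and each window holds 4 matches to GGGCGG, where 32.7% of all windows hold any. Capitals mark those matches on either strand, some of which touch or overlap.
Col8a1, chr16:57754738-57754987, minus strand: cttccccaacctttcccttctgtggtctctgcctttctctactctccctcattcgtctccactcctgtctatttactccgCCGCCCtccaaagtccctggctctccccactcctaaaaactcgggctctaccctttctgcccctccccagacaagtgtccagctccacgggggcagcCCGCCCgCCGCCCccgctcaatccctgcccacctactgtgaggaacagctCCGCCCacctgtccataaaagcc
Col8a2, chr4:126286544-126286793, plus strand: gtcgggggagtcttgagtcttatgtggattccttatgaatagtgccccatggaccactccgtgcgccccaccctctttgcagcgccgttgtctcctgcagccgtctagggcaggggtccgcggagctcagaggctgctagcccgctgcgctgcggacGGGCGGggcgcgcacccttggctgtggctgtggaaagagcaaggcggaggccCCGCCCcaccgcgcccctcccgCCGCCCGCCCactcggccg
Neither window holds a match to the TATA box, CCAAT box or AP-1 letters. Col8a1 and Col8a2 moved in the same direction in both comparisons from very different levels, and nothing about the matches was tested against these values.

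Among the remaining genes of the class, Col13a1 and Col25a1, which encode transmembrane collagens, had lower mean levels in HFD+AAV-CON than ND+AAV-CON and did not pass the adjusted threshold. Col13a1 measured 0.957, 0.648 and 0.833 CPM in ND+AAV-CON and 0.128, 0.404 and 0.477 CPM in HFD+AAV-CON (log2 fold change -1.30, SE 0.51, adjusted p = 0.0649), and Col25a1 measured 0.683, 0.270 and 0.808 CPM and 0.160, 0.188 and 0.238 CPM (-1.58, SE 0.58, adjusted p = 0.0504). These groups did not overlap for either gene, where 27.1% of all genes were so separated downward. DESeq2 called both genes lower, limma-voom called Col13a1 and upper-quartile scaling called Col25a1. In HFD+AAV-BCKDK Col13a1 measured 0.785, 0.495 and 0.404 CPM and Col25a1 0.546, 0.389 and 0.166 CPM, overlapping both other groups. The transmembrane collagen gene Col23a1 had log2 fold changes of -0.26 (adjusted p = 0.53) and 0.21 (adjusted p = 0.625). Col10a1, the collagen of hypertrophic cartilage, was not tested but had 60 counts in HFD+AAV-CON replicate 1 against 0 to 3 in each of the other 8 libraries. Summed CPM of 8 cartilage and valve marker genes was 6.61 to 7.93 in the ND+AAV-CON libraries, 147, 14.9 and 99.8 in HFD+AAV-CON replicates 1, 2 and 3, and 7.61 to 9.40 in HFD+AAV-BCKDK. Of the 3 of these markers with enough counts, Comp and Sox9 were called higher in HFD+AAV-CON than ND+AAV-CON and Cnmd lower, and the part of such cells in the collagen values was not tested. Col7a1, the anchoring fibril collagen of skin, had 0 to 10 counts in the ND+AAV-CON libraries, 28, 8 and 27 in those of HFD+AAV-CON and 0 to 11 in those of HFD+AAV-BCKDK, and Col17a1 had at most 6 in any library.

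**Figure D3:**
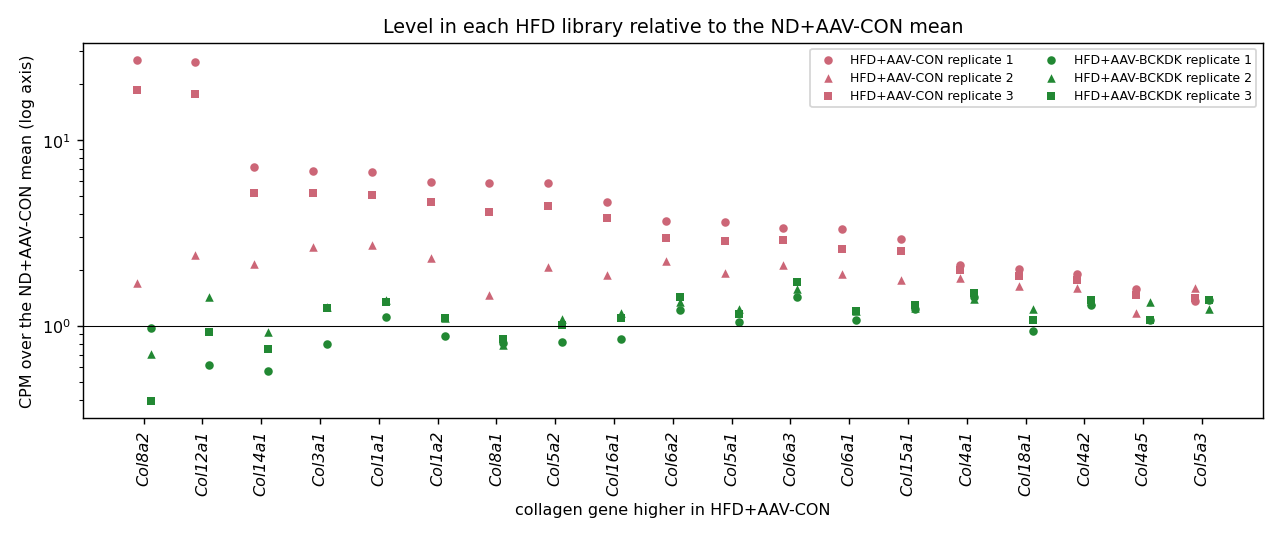
CPM of the 19 collagen genes called higher in HFD+AAV-CON, divided by the ND+AAV-CON mean, in each HFD library, on a log axis; the line marks a ratio of 1. For 18 of the 19 genes HFD+AAV-CON replicate 1 is the highest and replicate 2 the lowest of its group, and Col5a3, at 1.36, 1.61 and 1.41 times, has the reverse order.

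The 19 genes called higher in HFD+AAV-CON shared 1 order of libraries. Replicate 1 exceeded replicate 3 and replicate 3 exceeded replicate 2 in 18 of them, with Col5a3 in the reverse order. Over all 14160 genes tested that order was found in 4527 and the reverse in 4556. Those genes include ones called lower in HFD+AAV-CON. The order among all genes called higher was not counted, so whether it is particular to collagens was not tested. The median ratio of replicate 1 to replicate 2 was 1.89 over the 19 genes and 1.01 over all genes. Groups did not overlap for 20 higher and 3 lower of the 32 genes in the diet comparison, where 28.2% and 27.1% of all genes were so separated, and for 18 lower in the vector comparison, where 27.3% were. Between HFD+AAV-BCKDK and ND+AAV-CON, 10 were separated upward and 2 downward, where 12.6% and 15.1% of all genes were.

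Composition within the collagens can be read without scaling between libraries. Fibrillar collagens held 30.9%, 33.3% and 30.8% of collagen counts in the ND+AAV-CON libraries and 51.9%, 39.2% and 49.0% in those of HFD+AAV-CON, against 25.1%, 30.0% and 29.1% with HFD+AAV-BCKDK. For basement membrane collagens the ND+AAV-CON libraries had 46.6%, 42.9% and 47.4%, those of HFD+AAV-CON 24.7%, 38.9% and 28.3%, and those of HFD+AAV-BCKDK 53.1%, 48.4% and 49.2%. The fibrillar share was thus highest and the basement membrane share lowest in every HFD+AAV-CON library, and in HFD+AAV-BCKDK the basement membrane share was above and the fibrillar share below every ND+AAV-CON library. In each of these separations the exact two-sided permutation test gave p = 0.1, the smallest that 3 libraries against 3 allow, so this design cannot reach 0.05. Adjusted over the 5 classes, the values were 0.25 in the diet comparison and 0.167 for each of the other comparisons. The mean fibrillar share was 31.7% ± 1.40 (SD, n = 3) for ND+AAV-CON, with 46.7% ± 6.64 for HFD+AAV-CON, then 28.1% ± 2.62 for HFD+AAV-BCKDK. When HFD+AAV-CON replicate 3 was left out, the fibrillar share differed by 13.9 percentage points in the diet comparison and -17.5 in the vector comparison, against 15.05 and -18.6 with it. Beaded collagens held 11.7% to 13.5% in all 9 libraries and the others 7.11% to 9.87%. The fibril-associated class held 1.30% to 1.53% in ND+AAV-CON libraries, 1.43% to 2.54% in HFD+AAV-CON and 0.841% to 1.19% in HFD+AAV-BCKDK. Its share in HFD+AAV-BCKDK was below every library of the other groups, again at an exact permutation p of 0.1 (adjusted 0.167).

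**Figure D4:**
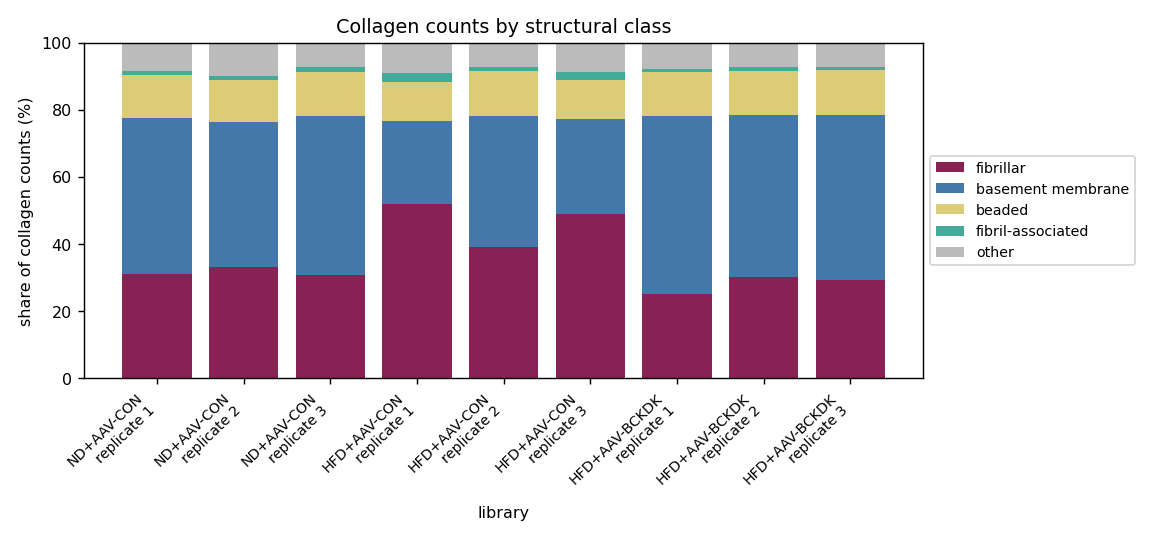
Share of collagen counts held by each structural class in each of the 9 libraries, in percent. The fibrillar share is 39.2% to 51.9% in HFD+AAV-CON and 25.1% to 33.3% elsewhere, and the basement membrane share is 24.7% to 38.9% in HFD+AAV-CON and 42.9% to 53.1% elsewhere.

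Levels can be compared between genes only per length. In CPM per kilobase of the longest principal transcript, Col4a1 came first in ND+AAV-CON at 42.7 ± 1.81 (SD, n = 3). It was followed by Col4a2 at 32.6 ± 2.06, Col3a1 at 26.6 ± 5.05, Col1a2 at 17.3 ± 1.43 and Col6a2 at 15.4 ± 1.67. Next were Col6a1 at 13.7 ± 0.905, Col15a1 at 10.5 ± 2.23 and Col1a1 at 8.70 ± 0.565. Col6a2 and Col6a1 in this order lie within about 1 SD of each other, as do Col1a2 and Col6a2, and Col15a1 and Col1a1. In HFD+AAV-CON Col3a1 came first at 130.0 ± 56.1, followed by Col4a1 at 84.4 ± 7.13, Col1a2 at 74.4 ± 32.0 and Col4a2 at 57.2 ± 5.11. The spread of Col3a1 there reaches the level of Col4a1, and that of Col1a2 reaches Col4a2. In HFD+AAV-BCKDK the first 3 places were again Col4a1 at 61.8 ± 2.13, Col4a2 at 43.8 ± 1.53 and Col3a1 at 29.3 ± 6.97.

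Ratios between chains of a trimer or a network were compared as log2 ratios of counts within each library, for 10 ratios chosen by structure. The ratio of Col1a1 to Col1a2 was -0.82, -0.87 and -0.83 in the ND+AAV-CON libraries, -0.66, -0.60 and -0.72 in those of HFD+AAV-CON, and -0.50, -0.51 and -0.57 in those of HFD+AAV-BCKDK. It stood at 3 separate levels, lowest in ND+AAV-CON and highest in HFD+AAV-BCKDK. The Col4a1 to Col4a2 ratio was 0.39, 0.44 and 0.46 in the ND+AAV-CON libraries, 0.59, 0.60 and 0.60 in those of HFD+AAV-CON, and 0.58, 0.47 and 0.54 in those of HFD+AAV-BCKDK, with both HFD groups above ND+AAV-CON. For Col6a3 to Col6a1 the values were -1.28, -1.11 and -1.07, then -1.14, -0.997 and -0.996, then -0.74, -0.77 and -0.64, and the HFD+AAV-BCKDK libraries stood above both other groups, which overlapped. Across classes, Col4a1 to Col1a1 had a mean of 2.46 for ND+AAV-CON, of 1.25 for HFD+AAV-CON and of 2.64 for HFD+AAV-BCKDK. Within the fibrillar class, the means of Col3a1 to Col5a1 in the same order were 2.55, 3.30 and 2.47. Col1a1 to Col3a1, the ratio of type I to type III chains, was -1.50 ± 0.180 (SD, n = 3) for ND+AAV-CON against -1.52 ± 0.045 for HFD+AAV-CON, a difference within the spread of replicates (exact permutation p = 0.9). In HFD+AAV-BCKDK it was -1.29 ± 0.206, with its 3 libraries above those of HFD+AAV-CON (difference 0.24) and overlapping those of ND+AAV-CON.

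Every ratio whose groups separated had an exact two-sided permutation p of 0.1, the smallest possible, and after adjustment over the 10 ratios of a comparison no value was below 0.143 in the diet comparison, 0.143 in the vector comparison and 0.167 in the joint comparison. Without HFD+AAV-CON replicate 3 the mean difference in the Col1a1 to Col1a2 ratio was 0.21 in the diet comparison and 0.10 in the vector comparison, and that in the Col4a1 to Col1a1 ratio was -1.13 and 1.32.

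**Figure D5:**
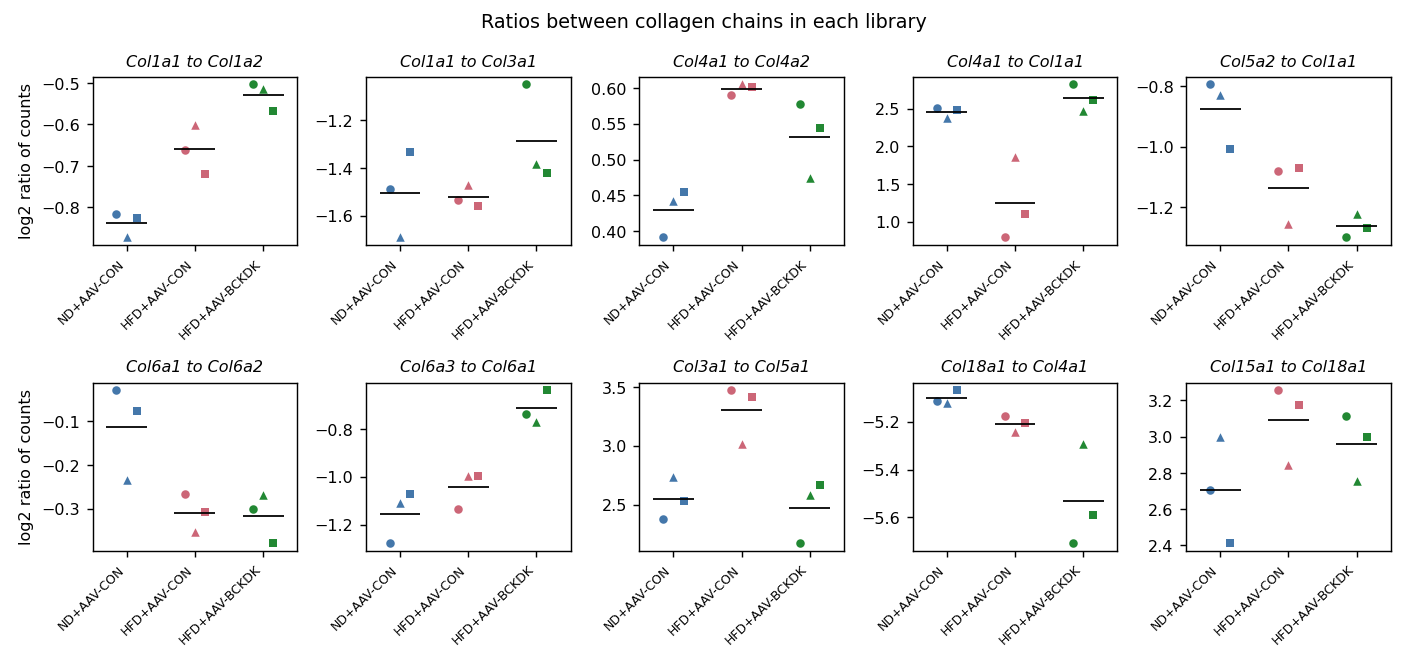
Log2 ratio of counts between 2 collagen chains in each library, for 10 pairs; each panel has its own vertical axis, circles, triangles and squares are replicates 1, 2 and 3, and lines are group means. Col1a1 to Col1a2 shows 3 separate levels, with means of -0.84, -0.66 and -0.53 from ND+AAV-CON to HFD+AAV-BCKDK.

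Genes that make, bind and cut collagen were read against the share of all genes called, 22.7% higher and 20.6% lower in the diet comparison, and 17.3% higher and 20.9% lower in the vector comparison. Of 31 tested genes of collagen biosynthesis and cross-linking, 21 were higher and 1 lower in HFD+AAV-CON than ND+AAV-CON, with a median of 0.64, and 1 was higher and 21 lower in HFD+AAV-BCKDK than HFD+AAV-CON, with a median of -0.53. Serpinh1, the chaperone of the collagen triple helix, had a log2 fold change of 1.74 (SE 0.10) in the diet comparison, P4ha1, a prolyl hydroxylase subunit, 1.78 (SE 0.14), and Plod3, a lysyl hydroxylase, 0.91 (SE 0.09). In the vector comparison these genes were at -0.41 (SE 0.09), -0.53 (SE 0.14) and -0.47 (SE 0.09). In the joint comparison 4 genes of this list were higher and 0 lower, where 1.18% and 1.27% of all genes were called higher and lower. Serpinh1 at 1.32 (SE 0.10), P4ha1 at 1.24 (SE 0.14) and Plod3 at 0.44 (SE 0.09) were among the 4. Of 9 tested collagen receptors 5 were higher in the diet comparison and 5 lower in the vector comparison, among them Mrc2, the endocytic collagen receptor, at 1.38 (SE 0.17) and -1.33 (SE 0.17). The 10 genes of collagen degradation and its inhibitors included 6 higher in the diet comparison and 5 lower in the vector comparison. Timp1, an inhibitor of matrix metalloproteinases, stood at 4.29 (SE 0.45) and -3.34 (SE 0.43), and Mmp14, a membrane-bound collagenase, at 1.59 (SE 0.24) and -1.53 (SE 0.24).

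Markers of the cells in the ventricle were set against the same shares of all genes, 43.3% called in either direction in the diet comparison and 38.2% in the vector comparison. In bulk tissue, fewer cells of a type and less RNA per cell cannot be told apart. Of 11 fibroblast markers, 7 were higher in HFD+AAV-CON than ND+AAV-CON and 8 lower in HFD+AAV-BCKDK than HFD+AAV-CON, and their summed level was 2578 to 2790 CPM in ND+AAV-CON, 3140 to 3909 CPM in HFD+AAV-CON and 2454 to 2640 CPM in HFD+AAV-BCKDK. The 8 myofibroblast markers summed to 273 to 350.0 CPM, 528 to 1548 CPM and 248 to 319 CPM, and divided in the diet comparison: Postn (3.51, SE 0.51), Cthrc1 (5.75, SE 1.04), Fn1 and Meox1 were higher, Acta2 (-0.38, SE 0.10) and Lrrc15 lower, and Tagln and Fap not called. In the vector comparison 4 of the 8 were lower. All 8 macrophage markers were higher in the diet comparison and lower in the vector comparison, with sums of 650.5 to 889 CPM, 1751 to 2875 CPM and 494 to 652 CPM.

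Cardiomyocyte markers, which define the labelled tissue, summed to 33010.2 to 34171 CPM in ND+AAV-CON, 16182 to 26797 CPM in HFD+AAV-CON and 29297 to 31785 CPM in HFD+AAV-BCKDK. Of the 8, 6 were lower in the diet comparison and 6 higher in the vector comparison. Of 8 endothelial markers 6 were lower and then 8 higher, with sums of 1728 to 1817 CPM, 866 to 1255 CPM and 1514 to 1721 CPM. For 8 smooth muscle and pericyte markers the counts were 3 lower and then 3 higher. Their sums were 1290 to 1354 CPM, 725 to 1048 CPM and 1210 to 1245 CPM, with HFD+AAV-CON below the other groups. For 6 Schwann cell markers the counts were 2 lower and then 1 lower. Both lists lie near or below the shares of all genes called in either direction. Yet 3 of 8 is above the 20.6% called lower in the diet comparison and the 17.3% called higher in the vector comparison, and 2 of 6 is above that 20.6%. None of 4 tested mesothelial markers was called in either comparison (0 by edgeR), and the 6 on that list summed to 5.04 to 20.5 CPM over all libraries. Adipocyte markers summed to at most 4.32 CPM in any library, Lep was at 0 in all 9, and the 1 tested, Cfd, was called higher in HFD+AAV-BCKDK than HFD+AAV-CON. The part of any of these cell types in the collagen differences was not tested.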

How the data were processed

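The deposited table holds whole-number counts per gene and library, made by the authors with no normalization that the values show. HISAT2 2.0.5 and mm10 are listed per the submitters' processing notes. How reads were assigned to genes, and whether strand was used, is not given in the sources used here, so reads of overlapping genes on opposite strands may not be told apart (at most 6.07% of the exon bases of a collagen gene are shared with another gene in GENCODE M21). Of 26178 entries, 4142 loci without a gene name, with 1.02% to 6.01% of counts, were left out. A count of 1 was found 984 times and a count of 2 4787 times. Whether a read pair was counted as 2, or low values were filtered, is not known, so limits set at 3 counts may not equal 3 fragments.

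For tests (R 4.3.3, edgeR 4.0.16) filterByExpr by group left 14160 genes, libraries were scaled with TMM, and all 9 libraries entered a single quasi-likelihood model with a mean for each group and Benjamini-Hochberg adjustment at 0.05. Intervals use 6 residual degrees of freedom before moderation of the spread. Each library was 1 replicate, and no pair within a group agreed within sampling noise. The labels call them biological replicates. Class shares and chain ratios used exact two-sided permutation tests. Lengths are those of the longest principal transcript in GENCODE M21.

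The collagen genes, classes, ratios and gene lists were chosen with earlier results of these data known. Values in every library are given for up to 4 genes of a class with the highest mean CPM, the largest rise and fall of a class among called genes, and genes called in all 3 comparisons; up to 3 genes of each pathway list with the smallest p are named. Col5a1, Col5a3 and Col27a1 were added once their values were known. The alternatives comprised RLE, upper-quartile and total-count scaling, other filters, unnamed loci kept, mitochondrial genes left out, DESeq2 1.42.0, limma-voom (limma 3.58.1), a replicate block, robust dispersion, fits restricted to the 2 groups compared, shares per kilobase, and leaving out each library. Counts were also simulated from gene means over all 9 libraries, with a spread per gene shared by every library. Among the 14008 genes tested, 99 were changed 2-fold and 99 were changed 4-fold in HFD+AAV-CON. Against ND+AAV-CON, 59.6% and 83.8% of these were recovered, and 0.0724% of unchanged genes were called. In the data 43.3% of genes were called in that comparison, and HFD+AAV-CON replicates differed more than those of other groups. These rates may therefore not hold for the real comparison.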

Additional observations from a re-analysis of the deposited data

How the results depend on the processing

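Over all alternatives run, between 18 and 23 collagen genes were higher in HFD+AAV-CON than ND+AAV-CON and between 16 and 20 were lower in HFD+AAV-BCKDK than HFD+AAV-CON, against 19 and 18 as reported. The shares of all genes so called ran from 16.2% to 42.3% and from 13% to 48.5%, each highest with total counts. The small counts varied more. The single gene lower in HFD+AAV-CON became 2 with upper-quartile factors, 0 with total counts, 3 with DESeq2 and 3 with limma-voom, and ranged from 0 to 2 when each library was left out. In the same order the shares of all genes called lower were 23.1%, 6.6%, 22.1%, 22.8% and 12% to 25.6%. Genes higher in HFD+AAV-BCKDK than HFD+AAV-CON, 0 as reported, became 1 with DESeq2 and 1 with limma-voom, each time Col6a6, and ranged from 0 to 1 when each library was left out. Of all genes 20.5%, 19.1% and 6.87% to 24.7% were called higher there. Genes higher in HFD+AAV-BCKDK than ND+AAV-CON, 1 as reported, became 3 with RLE factors, 0 with total counts, 4 with DESeq2, 2 with limma-voom and 5 with only the 2 groups compared, and ranged from 0 to 4 when each library was left out. In that order the shares of all genes called higher were 1.26%, 0.36%, 3.43%, 1.06%, 3.4% and 0.167% to 2.95%. The cause of these changes was not tested. Total-count scaling moved the median of all genes to 0.40, -0.47 and -0.08 in the diet, vector and joint comparisons, so its fold changes are read relative to those shifts.

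Same-numbered libraries of different groups correlated at -0.28 to 0.25 in their deviations from the group means, 2 of 9 pairs were above 0.1, and 1 library correlated best with its own number. Pairing by number was therefore not seen, though these correlations cannot exclude it, and the labels do not state it. With the replicate block, 19 and 18 genes were still called in the diet and vector comparisons, and 0 were higher in HFD+AAV-BCKDK than ND+AAV-CON, where Col4a1 had an adjusted p of 0.0681. The shares of all genes so called were 20.7%, 18.9% and 0.403%.

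With total counts Col20a1 was 0.29 in the diet comparison and -0.16 in the vector comparison, and Col4a4 was -0.36 in the vector comparison. Relative to the median of all genes under that scaling, these values kept the direction reported. Signs did change for values near 0 when a library was left out: Col20a1 in the diet comparison was 0.28 without ND+AAV-CON replicate 3 and 0.01 without HFD+AAV-CON replicate 3, and Col4a4 in the vector comparison was -0.0011 without HFD+AAV-BCKDK replicate 3. When each library was left out, the difference in the share of the other class ranged from -0.796 to 0.516 percentage points in the diet comparison, that of Col1a1 to Col3a1 from -0.113 to 0.0668 there, that of Col6a1 to Col6a2 from -0.0315 to 0.0245 in the vector comparison, and that of Col3a1 to Col5a1 from -0.172 to 0.0753 in the joint comparison. With 3 libraries a group, the intervals of genes near 1 CPM were wide, as for Col20a1 (-1.07 to 0.90 in the diet comparison).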
